A study of Canis lupus familiaris with 124 samples.

Results

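ODAPH, TMEFF2, SH2D5, NR1H4 and GNPNAT1 are the 5 genes with a known symbol that were selected on the measured CPM of 2 canine metastasis cell lines and the lymph node metastases they came from, since they had the highest log2 fold changes with a higher level in the cell lines. They are 5 of the 32183 Ensembl identifiers in the deposited tables, of which 1120 could be paired with a symbol here. The question addressed was whether their high levels were also found in the other prostate and bladder cancer cell lines of the series. RNA sequencing data were available for 8 cell lines in 22 libraries and for 9 tumor tissues in 1 library each.

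Metadcarc1511.2 and Metadcarc1511.3, which are the metastasis lines, the primary prostate adenocarcinoma (PAC) cell line Adcarc1511.1 and the metastasis tissues Ln4.2 and Ln4.3 all came from patient 4, a neutered male Dobermann aged 6 years. Adcarc0846 and its tissue P2 came from patient 2, a male German Rough-haired Pointer aged 6 years with PAC. Adcarc1508 came from patient 3, a neutered male mixed breed dog aged 11 years with PAC. The transitional cell carcinoma (TCC) line TCC1509, the tissue P6.1 and the metastasis Ln6.2 came from patient 6, a neutered male Bolonka Zwetna aged 9 years. TCC1506 and the bladder tumor B7 came from patient 7, a female Labrador Retriever aged 10 years. TCC0840 came from a fine needle aspirate of patient 5, a neutered male Pitbull Terrier aged 10 years, for which no tissue was analysed here. The bladder tumors B8, B9 and B10 came from a female Cairn Terrier aged 11 years, a neutered female Miniature Pinscher aged 8 years and a female German Shepherd aged 8 years. Each cell line is a single line from 1 tumor, all were grown in the same serum-containing medium, and no treatment is named in the labels. The libraries of a cell line came from passages between 68 and 448, so that they measure the spread within 1 culture and not between tumors.

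The members have different known roles. NR1H4, the farnesoid X receptor, is a nuclear receptor that binds bile acids and controls their synthesis and transport in liver and intestine. GNPNAT1 acetylates glucosamine-6-phosphate on the hexosamine route to UDP-N-acetylglucosamine, the sugar donor of N-glycans and of O-GlcNAc modification. TMEFF2 is a transmembrane protein with an EGF-like and follistatin-like domains that is known for its expression in prostate and brain and was studied as a prostate cancer antigen. SH2D5 is an adaptor protein with a phosphotyrosine-binding and an SH2-like domain that is best known from brain. ODAPH encodes a phosphoprotein of enamel formation, and its mutations cause amelogenesis imperfecta.

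Levels are given as CPM, in which the expected counts of a library, added up from its 4 lanes, are divided by its total and scaled with TMM factors that correct for a few very abundant genes. Single libraries and summed libraries were scaled separately, and the same tissue therefore has slightly different values in both. The cell line libraries held between 15355798 and 19935282 counts with a median of 17631419, and the tissue libraries between 11920463 and 18086895 with a median of 14840708. The epithelial markers were present in all samples, with the sum of 6 markers between 371 CPM in TCC1509 and 2374 CPM in Adcarc1511.1 among the cell lines, but at only 44.3 CPM in P2 and 75.9 CPM in Ln6.2. The sum of 8 fibroblast markers was between 520 and 96880 CPM in the tissues and between 0.235 and 102 CPM in 7 cell lines, whereas TCC1509 had 1109 CPM. The sums of 7 leukocyte markers were between 79.0 and 2494 CPM in the tissues and at most 5.56 CPM in the cell lines. In a bulk tissue, a lower share of tumor cells and less RNA per tumor cell cannot be told apart. The part of this difference in the results below was not tested. The ratios to the epithelial markers given below do not measure tumor cell share, since the markers also differed between cell lines. Their sum rests on 6 of 11 listed markers, and CDH1 and the keratins of the list had no identifier.

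The pairs that selected the 5 genes are described first, without a test. In Metadcarc1511.2 and Metadcarc1511.3, 255 of 15123 tested genes (1.69%) were called higher than in Ln4.2 and Ln4.3 (edgeR quasi-likelihood test blocked by pair, adjusted p up to 0.01 and a 2-fold difference or more), and 29 of these had a symbol. By log2 fold change, the members ranked 2, 16, 17, 21 and 59 among all 255. ODAPH had 2005 and 884 counts in the cell lines and 0 counts in both tissues. Against a floor of 3 counts per tissue library, its level was at least 215-fold higher in Metadcarc1511.2 and at least 94.0-fold higher in Metadcarc1511.3, and its fitted log2 fold change of 12.84 depends on the prior count and is no bound. The fitted values of the other members were 5.51 for TMEFF2, 5.38 for SH2D5, 5.02 for NR1H4 and 3.11 for GNPNAT1. The next genes with a symbol, just outside the 5, were DLGAP1 at 3.00, KRT80 at 2.98 and ERO1A at 2.97, so that GNPNAT1 was separated from them by little.

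**Figure D1:**
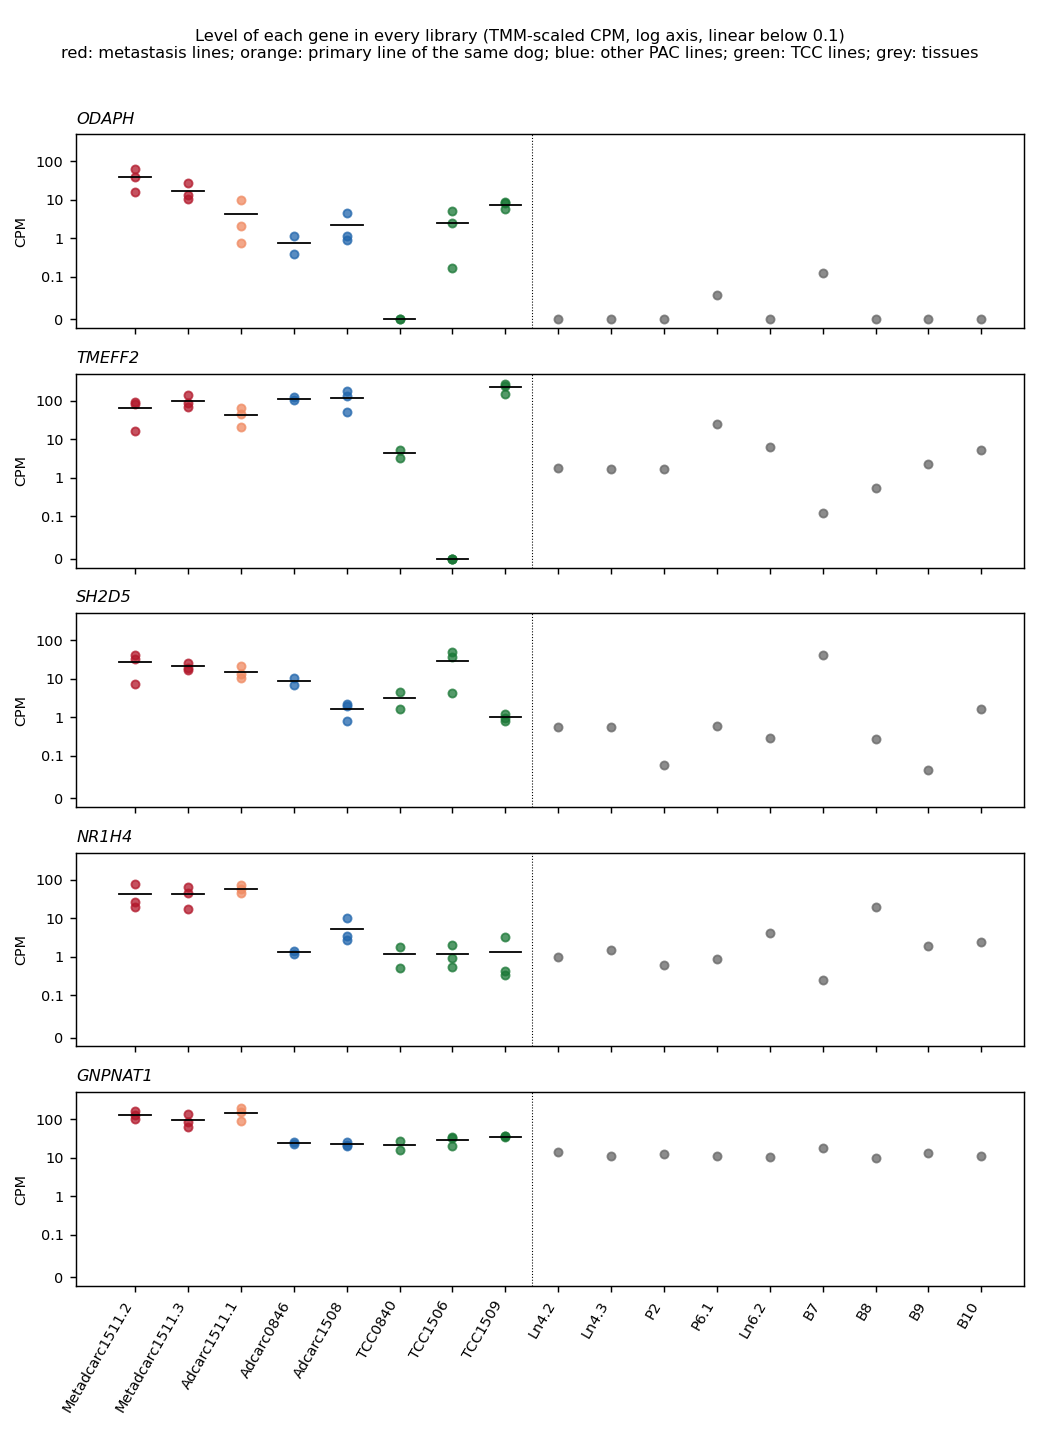
CPM of the 5 genes in each library of 8 cell lines and 9 tissues, on a log axis that is linear below 0.1 CPM. Points are libraries, black lines are the means of each cell line, and the dotted line separates cell lines from tissues. NR1H4 and GNPNAT1 are high in the 3 cell lines of patient 4 and lower in the other 5 cell lines, whereas TMEFF2 is highest in TCC1509 and 0 in TCC1506.

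NR1H4 was highest in the 3 cell lines of patient 4. Its CPM per library were 78.9, 19.3 and 27.0 in Metadcarc1511.2 and 63.3, 16.8 and 44.4 in Metadcarc1511.3. The primary tumor line Adcarc1511.1 of the same dog, which did not enter the selection, had 73.6, 44.7 and 57.1 CPM. All 9 libraries of these 3 cell lines were above every library of the other 5 cell lines. The 2 metastasis lines among them selected the gene, so that their part in this is a description. Over summed libraries, every line of patient 4 was above every other line for 5.92% of 15333 genes with at least 1 CPM in 2 samples. The order among the 3 lines was within the spread of their libraries. Adcarc1508 followed with 9.83, 2.67 and 3.44 CPM. Adcarc0846 had 1.40 and 1.19 CPM and TCC0840 0.508 and 1.81 CPM. TCC1506 had 0.913, 2.05 and 0.552 CPM and TCC1509 had 3.31, 0.422 and 0.334 CPM. The lowest library of Adcarc1508 was above all libraries of Adcarc0846, TCC0840 and TCC1506, and it was exceeded only by replicate 1 of TCC1509. The other 4 lines each overlapped with the next in order. Among the 9 tissues NR1H4 was between 0.245 and 19.96 CPM with a median of 1.44 CPM, and the highest value was found in the bladder tumor B8. Ln4.2 and Ln4.3, the metastases of patient 4, had 1.00 and 1.44 CPM and were thus not higher than the other tissues. The high level of NR1H4 was therefore measured in all cell lines of patient 4, while B8 was above all libraries of the 5 other cell lines.

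GNPNAT1 was likewise highest in the 3 cell lines of patient 4, and its level was higher. Adcarc1511.1 had 90.2, 154 and 190 CPM. Metadcarc1511.2 had 163, 126 and 102 CPM, and Metadcarc1511.3 had 135, 86.6 and 62.02 CPM. The 3 cell lines of patient 4 overlapped with each other, and the lowest of their 9 libraries was above the highest library of the other lines. As the metastasis lines among them selected the gene, their part in this is a description. Over summed libraries, every line of patient 4 was above every other line for 5.92% of 15333 genes. TCC1509 had 35.4, 35.9 and 33.8 CPM and TCC1506 had 19.6, 34.6 and 32.1 CPM. In Adcarc0846 the CPM were 22.8 and 25.5, in Adcarc1508 they were 24.9, 20.5 and 21.8, and in TCC0840 they were 27.5 and 15.3. Each of these lines overlapped with its neighbour in order. The 9 tissues lay close together, between 9.92 and 17.8 CPM with a median of 10.9 CPM, and Ln4.2 and Ln4.3 had 14.4 and 10.9 CPM. Of all members, GNPNAT1 was the only one with counts of more than 100 in every library of the series. Relative to the summed epithelial markers, GNPNAT1 in P2 was at 0.261, and in Ln6.2 at 0.128, both above its ratio in all 8 cell lines (0.0143 to 0.101).

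TMEFF2 was found in all 5 PAC lines and in TCC1509. Its CPM were 16.2, 82.7 and 92.8 in Metadcarc1511.2 and 67.1, 87.4 and 139 in Metadcarc1511.3. The other PAC lines had similar levels, with 20.2, 63.7 and 45.0 CPM in Adcarc1511.1, 50.1, 177 and 135 CPM in Adcarc1508 and 102 and 124 CPM in Adcarc0846. TCC1509 was highest with 146, 279 and 238 CPM. These 6 lines each overlapped with the next in order, so that the metastasis lines held no separate place among them. The other TCC lines were separated from them, with 3.18 and 5.37 CPM in TCC0840 and no count in any of the 3 libraries of TCC1506. A count of 0 over the libraries of TCC1506 was matched by only 2 counts in its own tumor B7 (0.124 CPM). Among the tissues, P6.1, the primary tumor of TCC1509, was highest with 25.3 CPM, followed by Ln6.2 of the same dog with 6.31 CPM. The remaining 7 tissues had between 0.122 and 5.16 CPM.

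SH2D5 was high in lines of both tumor types. TCC1506 had 4.22, 35.9 and 48.2 CPM, and its tumor B7 had 41.1 CPM. In Metadcarc1511.2 the CPM were 7.36, 40.7 and 32.4, in Metadcarc1511.3 they were 16.9, 26.1 and 19.2, and in Adcarc1511.1 they were 21.5, 13.4 and 10.7. These 4 lines overlapped in order. Adcarc0846 had 10.6 and 6.89 CPM, which was below Metadcarc1511.3 and Adcarc1511.1 but overlapped with replicate 1 of TCC1506 and of Metadcarc1511.2, and the lowest levels were found in TCC0840 with 4.64 and 1.65 CPM, Adcarc1508 with 0.774, 2.25 and 1.90 CPM and TCC1509 with 0.970, 0.784 and 1.22 CPM. Apart from B7, all tissues had between 0.0674 and 1.62 CPM.

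ODAPH was close to absent in tissues and varied widely within several cell lines. It had 2 counts in B7, 1 count in P6.1 and no count in the other 7 tissues, where 3 counts correspond to between 0.154 and 0.217 CPM over summed libraries. Metadcarc1511.2 had 16.01, 62.7 and 38.0 CPM and Metadcarc1511.3 had 13.2, 26.8 and 10.2 CPM. The lowest of these 6 values was just above the highest value elsewhere, which was found in Adcarc1511.1 with 2.04, 10.1 and 0.774 CPM. TCC1509 had 5.82, 8.50 and 8.18 CPM, TCC1506 had 0.171, 4.95 and 2.43 CPM and Adcarc1508 had 0.910, 4.65 and 1.13 CPM. Adcarc0846 had 1.16 and 0.380 CPM, and TCC0840 had no count in either library. ODAPH was thus the only member whose 2 metastasis lines were above every library of all other lines, by 10.2 to 10.1 CPM at the closest. The 2 metastasis lines overlapped with each other. As they selected the gene, this is a description, and the share of all genes with such a separation was not counted. Per transcript length, its mean level in Metadcarc1511.2 was 182 ± 109 TPM (SD, n = 3 libraries), compared with 401 ± 84.6 TPM for GNPNAT1, 54.8 ± 36.3 TPM for TMEFF2, 35.8 ± 27.1 TPM for NR1H4 and 8.74 ± 5.68 TPM for SH2D5. On this scale ODAPH had the second highest level of the 5 members in that line.

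The 3 cell lines with a primary tumor in the data, Adcarc0846, TCC1509 and TCC1506, were then compared with the tissue of the same dog. TMEFF2 was 75.5-fold higher in Adcarc0846 than in P2 (95% interval of counting error 49.8 to 121) and 10.1-fold higher in TCC1509 than in P6.1 (9.14 to 11.1), while TCC1506 and B7 were both below the floor of 3 counts. NR1H4 was 2.41-fold higher in Adcarc0846, 1.83-fold in TCC1509 and 4.95-fold in TCC1506. In TCC1509 the direction rested on replicate 1, since the log2 ratios of its libraries to P6.1 were between -1.37 and 1.94 (SD 1.82) and replicates 2 and 3 were below P6.1. GNPNAT1 was 2.19-fold, 3.71-fold and 1.70-fold higher. For reference, the folds in the metastasis pairs, by which the genes were selected, were 45.5 and 32.7 for NR1H4 and 10.3 and 10.0 for GNPNAT1.

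The pairs differed most for SH2D5. Adcarc0846 had 346 counts and P2 had 1 count, a ratio of 131 with a counting interval from 23.3 to 5184. TCC1509 was 2.01-fold higher than P6.1 (1.01 to 4.43), and the summed libraries of TCC1506 were at 0.759 times the level of B7 (0.693 to 0.832). This interval covers counting error only, and the log2 ratios of the 3 libraries to B7 were between -3.28 and 0.23, with replicate 1 far below the others, so that TCC1506 and B7 did not differ beyond the spread of the libraries. ODAPH was at least 3.91-fold higher in Adcarc0846 than in P2, which had no count. Its ratio was 151 in TCC1509 on 1 count in P6.1 (26.9 to 5965) and 21.3 in TCC1506 on 2 counts in B7 (5.78 to 178). ODAPH and GNPNAT1 thus had a higher summed level in the cell line in each of these 3 pairs. NR1H4 did so as well, but in TCC1509 through 1 library. For these 3 members every summed line was also above every tissue of the pairs, as was found for 13.4% of 13017 genes tested. The share of all genes that were higher within each pair was not counted. P2 had the lowest epithelial markers and the highest fibroblast markers of all tissues. Divided by the summed epithelial markers, the log2 ratio of Adcarc0846 to P2 was -4.03 for NR1H4 and -4.17 for GNPNAT1, so that both changed direction in this pair, and it fell to 0.94 for TMEFF2. These ratios are a description and no correction for tumor cell share, since the markers also differ between cell lines.

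**Figure D2:**
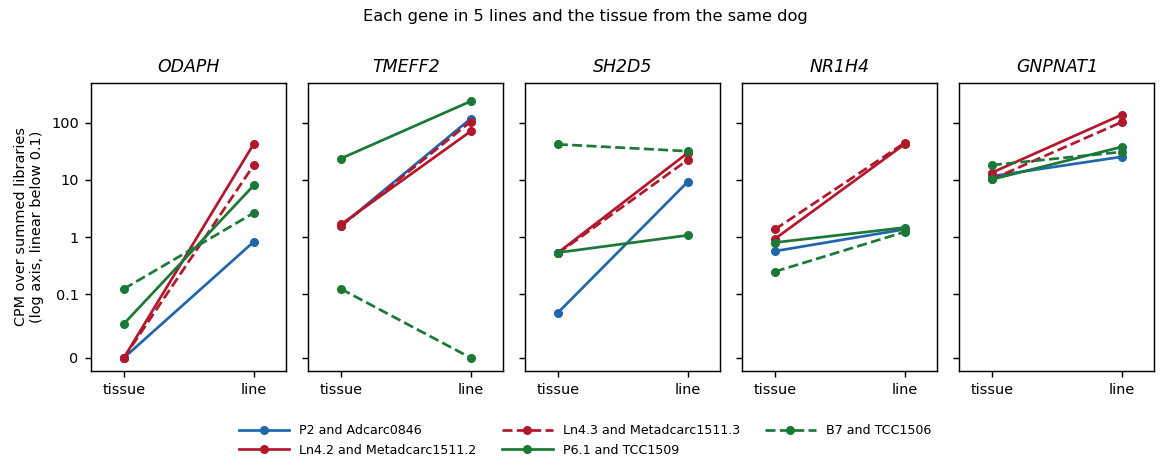
CPM over summed libraries of the 5 genes in the tissue and the cell line of 5 pairs, on a log axis that is linear below 0.1 CPM. Each line joins a tissue to the cell line from the same dog. The 2 metastasis pairs (red) selected the genes, so that their large differences are a description. NR1H4 has smaller differences in the other 3 pairs. SH2D5 is at a similar level in TCC1506 and B7, and TMEFF2 is at or near 0 in that pair.

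Over these 3 pairs, with the dog as a block, no gene of 13017 tested was called higher (0%) or lower by edgeR, although 1299 genes had an unadjusted p of less than 0.05 and DESeq2 called 906. None of the 4 members that passed the count filter was therefore called. ODAPH, SH2D5 and NR1H4 passed the filter only through the cell lines, and GNPNAT1 through both groups. ODAPH had a log2 fold change of 5.67 (SE 0.95, adjusted p = 0.225, edgeR). The values were 1.57 for SH2D5 (SE 1.63, adjusted p = 0.740), 1.22 for NR1H4 (SE 0.58, adjusted p = 0.547) and 1.04 for GNPNAT1 (SE 0.44, adjusted p = 0.526). The SE of SH2D5 was as large as its value. With DESeq2 the value of ODAPH was 5.58 (adjusted p = 7.94e-05), which is given as a description, since the cell lines admitted the gene to the test. TMEFF2 did not reach 10 counts in every sample of either group because of TCC1506 and B7, and without a filter its value was 3.32 (SE 2.06, adjusted p = 0.705).

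In the wider comparison of the 6 cell lines with the 7 tissues that the selection did not use, with the tumor class but not the dog as a covariate although 3 lines share a dog with a tissue, 81 of 12442 genes (0.651%) were called higher and 432 were called lower (3.47%). None of the 3 members that passed the filter was called. SH2D5 and NR1H4 passed it only through the cell lines, and GNPNAT1 through both groups. GNPNAT1 came nearest, with a log2 fold change of 1.41 (SE 0.48, adjusted p = 0.0742, edgeR). Its summed level was between 21.97 and 154 CPM in the 6 lines and between 9.47 and 18.1 CPM in the 7 tissues, so that every line was above every tissue, as was found for 3.87% of the genes tested. The 154 CPM belonged to Adcarc1511.1 of patient 4, and the other lines had at most 37.7 CPM. With 1 sample left out, GNPNAT1 was between 1.06 without Adcarc1511.1 (adjusted p = 0.0195, edgeR) and 1.61 without TCC0840 (adjusted p = 0.0840). Without P2 it was 1.14 (adjusted p = 0.252), and it was not called in any of these fits. The values were 1.35 for SH2D5 (SE 1.79, adjusted p = 0.660) and -1.26 for NR1H4 (SE 1.70, adjusted p = 0.669), and both groups overlapped. The sign of SH2D5 depended on TCC1506, without which its value was -0.73, and its size on B7, without which it was 4.68 (adjusted p = 0.0132). The sign of NR1H4 depended on B8, without which its value was 0.12. NR1H4 was also 1.33 without the tumor class in the model.

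ODAPH and TMEFF2 did not pass the filter in this comparison, because TCC0840 had no ODAPH count and TCC1506 no TMEFF2 count. Without a filter, ODAPH had a log2 fold change of 6.92 (SE 1.38, adjusted p = 0.00573, edgeR), and with TCC0840 left out it passed the filter and had 7.19 (SE 0.85, adjusted p = 4.67e-04). The corresponding values of TMEFF2 were 4.19 without a filter (SE 1.55, adjusted p = 0.0920) and 4.49 without TCC1506 (SE 1.31, adjusted p = 0.0518). TMEFF2 also passed the filter without B7, with 3.72 (SE 1.61, adjusted p = 0.124, edgeR). The fits of ODAPH admit it only through the cell lines in which it was high, by dropping the filter or the line without a count. They are no independent support. TMEFF2 did not pass the threshold in any of its fits.

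For the 3 TCC lines against the 5 primary TCC tissues, 1 of 12882 genes (0.00776%) was called higher and 31 were called lower (0.241%), and no member was called. The dog was not in the model, although TCC1509 shares a dog with P6.1 and TCC1506 with B7. GNPNAT1 had a log2 fold change of 1.11 (SE 0.33, adjusted p = 0.152, edgeR), and the lines (21.97 to 37.7 CPM) and the tissues (9.47 to 18.1 CPM) again did not overlap, as was found for 8.43% of genes. NR1H4 had -2.09 (SE 1.27, adjusted p = 0.470), and without B8 it had only -0.18, while SH2D5 had 0.37 (SE 1.80, adjusted p = 0.940), which was -2.15 without TCC1506 and 4.11 without B7. The 3 TCC lines were at only 1.23 to 1.47 CPM of NR1H4 in their summed libraries, compared with 0.249 to 19.1 CPM in the tissues. NR1H4 and SH2D5 passed the filter here only through the lines. Outside the filter, ODAPH had 6.43 (SE 1.68, adjusted p = 0.0925) and TMEFF2 3.62 (SE 1.90, adjusted p = 0.354), and the value of ODAPH by DESeq2 without a filter was 6.47 (adjusted p = 0.00875), again with the gene admitted through the lines.

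**Figure D3:**
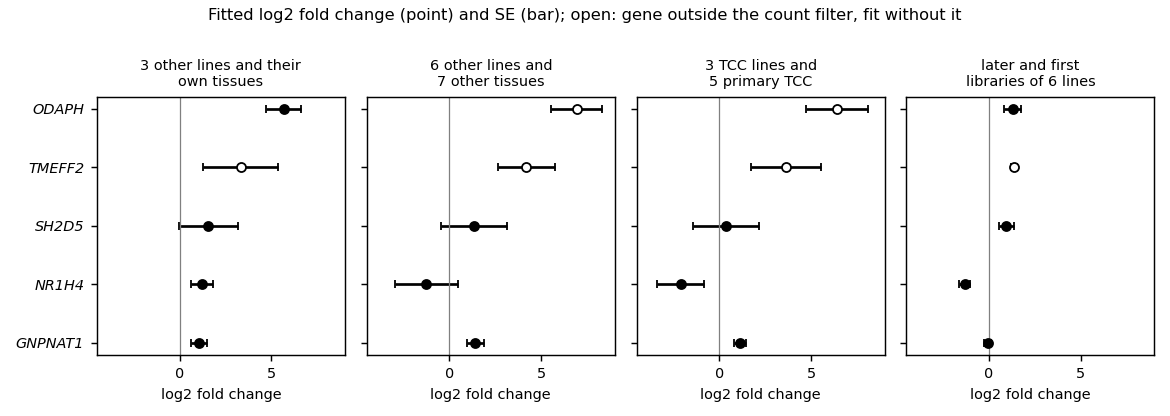
Fitted log2 fold change (points) with SE (bars) of the 5 genes in 4 comparisons. The first 3 panels show cell lines relative to tissues, and the last shows replicates 2 and 3 relative to replicate 1 of the same cell lines. Open points mark genes outside the count filter, for which the fit without a filter is shown. ODAPH and TMEFF2 have the largest values in the first 3 panels, and NR1H4 is the only gene below 0 by more than its SE in the last panel.

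Of the 8 cell lines, 6 had 3 libraries, with replicate 1 always from the earliest passage, 6 to 8 passages before replicate 2 and up to 11 before replicate 3. With the cell line as a block, 118 of 10828 genes (1.09%) were called higher in the later libraries and 173 (1.6%) lower. NR1H4 was called lower, with a log2 fold change of -1.33 (SE 0.31, adjusted p = 0.00615, edgeR). The gene passed the filter only through the first libraries, since the later libraries of TCC1509 had 7 and 6 counts. As these first libraries were those in which it was higher, the call is given as a description. Both later libraries were below replicate 1 in 5 of 6 lines, and the mean of the later libraries was between 0.114 times the first in TCC1509 and 0.692 times in Adcarc1511.1. TCC1506 was the exception, with 0.913 CPM followed by 2.05 and 0.552 CPM. The call was lost without replicate 2 (adjusted p = 0.0489) or replicate 3 (0.0296) and without either metastasis line, Adcarc1508 or TCC1509 (0.0127 to 0.0406), although the direction was kept in these fits.

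TMEFF2 went the other way in the 5 lines that had it, in which both later libraries were above replicate 1. The ratio of the later mean to the first library was lowest in Metadcarc1511.3 with 1.69 and highest in Metadcarc1511.2 with 5.41. As TCC1506 had no count, TMEFF2 was outside the filter, and without TCC1506 it was called with a log2 fold change of 1.34 (SE 0.22, adjusted p = 0.00126, edgeR). In that fit, 210 of 11014 genes were called higher and 220 lower. ODAPH had 1.29 (SE 0.47, adjusted p = 0.0507) and was higher in both later libraries in 4 of 6 lines. ODAPH passed the filter only through the later libraries, since replicate 1 of TCC1506 had 3 counts. SH2D5 had 0.93 (SE 0.41, adjusted p = 0.106) and was likewise higher in both in 4 of 6 lines, but lower in both in Adcarc1511.1. In TCC1506, SH2D5 was 9.96-fold and ODAPH 21.6-fold higher in the mean of the later libraries. GNPNAT1 had -0.07 (SE 0.19, adjusted p = 0.821) and showed no common direction among lines.

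**Figure D4:**
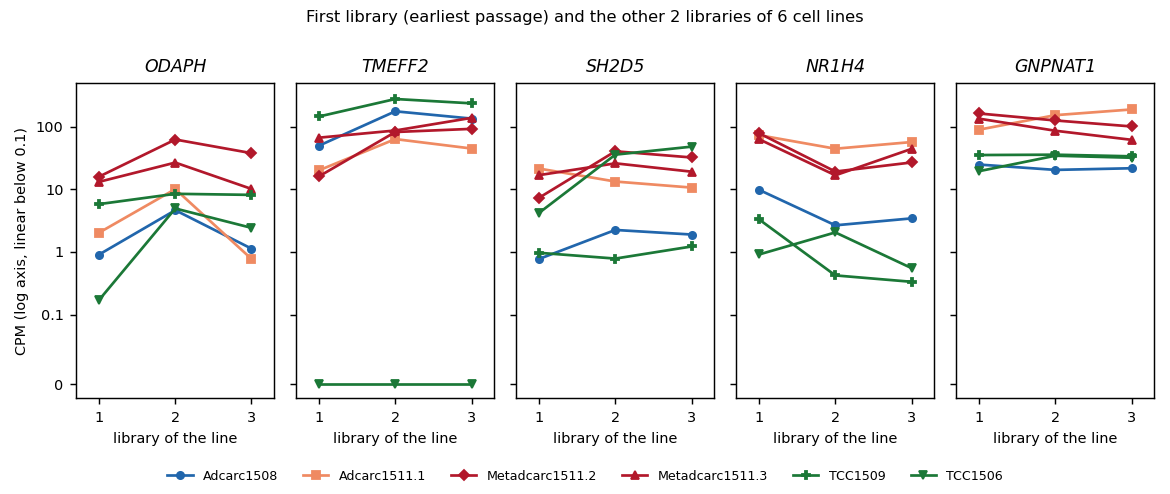
CPM of the 5 genes in library 1, 2 and 3 of the 6 cell lines with 3 libraries, on a log axis that is linear below 0.1 CPM. Lines join the libraries of a cell line, library 1 has the earliest passage, and the order of libraries 2 and 3 is not tested. NR1H4 is lower in both others than in library 1 in 5 lines, and TMEFF2 is higher in both others in the 5 lines in which it was counted.

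The markers of dividing cells also differed between these libraries. All 5 had a positive log2 fold change, with a median of 1.08, and AURKA, a mitotic kinase, was called higher. The lines differed in this. The sum of the 5 was lower in both later libraries only in TCC1506, with 615, 378 and 491 CPM. It was 271, 358 and 273 CPM in Adcarc1511.1 and 72.3, 315 and 657 CPM in Metadcarc1511.3. The part of these markers in the results of the members was not tested. The labels give a number for each library on its sample sheet. The number 4 was used for both replicate 1 of Metadcarc1511.2 and Ln4.2, the number 5 for both replicate 1 of Metadcarc1511.3 and Ln4.3, and the number 6 for both replicate 3 of TCC1506 and B7. These libraries thus cannot all belong to 1 series of numbers, and passage and the handling of the libraries cannot be told apart. Lines and tissues also differed in the kit used for RNA extraction, which cannot be told apart from the comparison of lines with tissues.

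Genes related to the members were examined in lists that could only partly be matched to identifiers. Of 21 genes of the hexosamine and N-glycan precursor route around GNPNAT1, 12 had an identifier, and none was called in any of the 4 comparisons. In the 6 lines and 7 tissues, their median log2 fold change was -0.0014, compared with -0.019 for all genes tested, and 6 of 12 were above 0. The smallest adjusted p among them were those of OGT, the transferase that uses the product of the route for O-GlcNAc, with -0.82 (adjusted p = 0.109, edgeR), B4GALT1, a galactosyltransferase, with -0.85 (adjusted p = 0.144) and ALG3, a mannosyltransferase, with 0.58 (adjusted p = 0.153). OGT also had a log2 fold change of -0.99 in the later libraries (adjusted p = 9.38e-05, edgeR), just short of the 2-fold limit.

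The lists around NR1H4, ODAPH and TMEFF2 had fewer identifiers. Of 16 genes listed around NR1H4, only NR1H3 and RARB had an identifier, and neither was called. The RXR genes, NR0B2 and ABCB11 of this list had none, so that they were not examined. NR1H3, the liver X receptor alpha, had -2.79 in the wider comparison (adjusted p = 0.0714, edgeR). Of 21 enamel genes, 5 had an identifier, with 4 tested and 4 above 0 in the wider comparison (median 1.04), but none called higher. LAMB3, a laminin chain of epithelial basement membranes, was called lower in the later libraries (-1.30, adjusted p = 0.00467). Of 16 genes of growth factor, activin and BMP signalling around TMEFF2, 10 had an identifier and none was called, with a median of 0.23 in the wider comparison.

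Across the 17 summed samples, the genes with the most similar patterns were sought among 1103 genes with a symbol by Pearson correlation of log2(CPM + 0.5). These correlations describe samples that share dogs, cell type and the difference between lines and tissues. GNPNAT1 was most similar to TRAPPC6B (r = 0.96), ERO1A (r = 0.92) and ODAPH (r = 0.91). ODAPH was most similar to GNPNAT1, TRAPPC6B (r = 0.90) and ERO1A (r = 0.88). NR1H4 was most similar to CNNM4 (r = 0.86), followed by PHOSPHO1 (r = 0.76) and COL10A1 (r = 0.75), TMEFF2 to HAUS3 (r = 0.79), ACVR2B (r = 0.77) and SIN3A (r = 0.76), and SH2D5 to TATDN1 (r = 0.89), DCAF13 (r = 0.88) and NUDCD1 (r = 0.87). Among the members themselves, r was between 0.17 for TMEFF2 with SH2D5 and 0.91 for ODAPH with GNPNAT1. These values include the 4 samples that selected the genes, and no correlation was calculated without them.

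Genes next to the members were compared between the 3 lines of patient 4 and the other 5 lines, in a window of 50 protein-coding genes on each side in the RefSeq gene order of the assembly UU_Cfam_GSD_1.0, chosen after the values were seen. ERO1A lies 3 protein-coding genes from GNPNAT1 and TRAPPC6B lies 53 genes away on the same chromosome. Around GNPNAT1, only 8 of 100 protein-coding genes had a symbol and a level, and in 7 of them every line of patient 4 was above every other line, which was found for 7.86% of all 1069 genes with a symbol and a place in this order and for 5.92% of all 15333 genes with at least 1 CPM in 2 samples. The 7 genes were MGAT2, ARF6, VCPKMT, ERO1A, SAMD4A, LGALS3 and ARID4A, and the median log2 ratio of the 8 was 1.15, compared with -0.06 over all such genes. ERO1A, an oxidase of disulfide formation in the endoplasmic reticulum, had between 910 and 1399 CPM in the lines of patient 4 and between 197 and 461 CPM in the others. LGALS3, the lectin galectin-3, had between 1420 and 1818 CPM and between 492 and 1136 CPM. The exception was ABHD12B, with 5.40 to 17.4 CPM and 3.02 to 7.16 CPM. In the tissues Ln4.2 and Ln4.3, only ABHD12B of the 8 was above all other tissues, and the median log2 ratio was -0.14.

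Around the other members, few genes had a level as well. Around TMEFF2, 7 of 75 protein-coding genes did, and 1 of the 7 had all lines of patient 4 above the others. None did among 8 of 100 genes around SH2D5, 9 of 100 around NR1H4 and 1 of 52 around ODAPH, and with so few genes neither a run of neighbours nor its absence is shown. The genes most similar to SH2D5 were likewise close to each other on 1 chromosome and outside the window of SH2D5, with DCAF13 and NUDCD1 15 genes apart and TATDN1 50 genes from NUDCD1. No copy number data were analysed here, and the cause of the levels around GNPNAT1 was not tested.

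**Figure D5:**
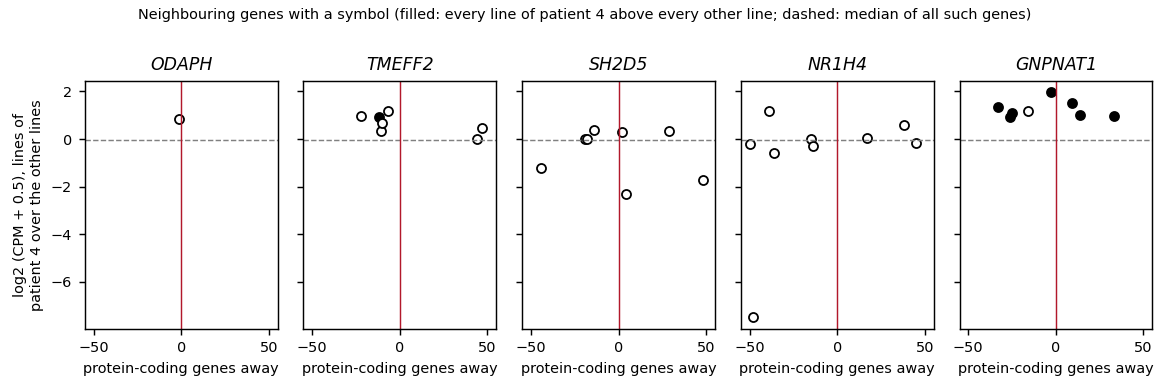
Log2 ratio of mean CPM + 0.5 in the 3 lines of patient 4 to the other 5 lines for genes near each member, against their distance in protein-coding genes. Filled points have every line of patient 4 above every other line, the red line is the place of the member and the dashed line is the median of all genes with a symbol. Around GNPNAT1 all 8 genes are above the dashed line and 7 are filled.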

How the data were processed

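Canine RNA sequencing data of 31 libraries with 4 lanes each were used. According to the study's methods, reads were trimmed with Trimmomatic 0.36, aligned to CanFam3.1 with STAR 2.5.3 and quantified for Ensembl genes with RSEM 1.3.0. The authors deposited expected counts without normalization and TPM for each lane. Of the expected counts above 0, 17.5% were not whole numbers. Expected counts were summed over lanes (and over libraries of a cell line for tests against tissues) and rounded; TPM were averaged over lanes. In 1 Adcarc0846 library, the labels of lanes 2 to 4 were numbered upward, and titles were used instead.

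Tests used edgeR 4.0.16 (TMM, quasi-likelihood F test, Benjamini-Hochberg adjustment over all tested genes) in R 4.3.3. Genes with at least 10 counts in every sample of 1 group entered. Calls needed an adjusted p up to 0.01 and a 2-fold difference or more. SE were calculated as the absolute log2 fold change divided by the root of F. DESeq2 1.42.0 was an alternative, as were other scalings, filters, thresholds, pooling, covariates, and samples left out. The dog was a block in the pairs since line and tissue came from the same animal. Tests were tried on simulated data. Python 3.11.15, pandas 2.3.3, numpy 2.4.6, scipy 1.17.1 and matplotlib 3.10.9 were used for levels and figures. The groups and passages came from the labels, and pairs are lines and tissues of 1 dog.

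The members and gene lists were chosen with earlier results of these data known. Symbols came from the study's own supplementary lists and text, so genes with a symbol are not a random sample. Named genes were the 5 members, the 3 most similar genes of each, the 3 genes just outside the selection and listed partner genes; neighbouring genes were added after their values were seen. The partner list of SH2D5 is not reported here. Intervals (exact, 95%) and floors of 3 counts cover counting error only. The p-values for libraries measure the spread between passages, which may be technical.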

Additional observations from a re-analysis of the deposited data

Results flagged for a closer look

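In groups of 5 to 7 samples, 10 of 15 groups tested had a sample that stood apart from the others by Dixon's criterion on summed CPM. For normally distributed values, chance alone flags about 1 in 20 groups. The CPM were not log-transformed, so that this rate need not hold here, and the groups share samples. Among the 6 cell lines not used by the selection, Adcarc1511.1 stood apart for NR1H4 with 61.1 CPM (others 1.23 to 5.98) and for GNPNAT1 with 154 CPM (others 21.97 to 37.7). This line comes from the same dog as the metastasis lines.

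Among the 5 primary TCC tissues and among the 7 tissues not used by the selection, the highest samples were P6.1 for TMEFF2 with 23.5 CPM (others at most 5.86), B7 for SH2D5 with 41.7 CPM (others at most 1.52) and B8 for NR1H4 with 19.1 CPM (others at most 3.86). Among the 7 tissues, B7 also stood apart for GNPNAT1 with 18.1 CPM (others 9.47 to 12.8) and for ODAPH with 0.124 CPM, which rests on 2 counts. The causes of these values were not tested.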

How the results depend on the processing

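Of 255 fits of members under alternatives, 234 kept direction and side of the threshold and 11 changed direction. In 3 fits ODAPH became called, in the pairs with DESeq2 with or without a filter and between libraries without a filter. In 7 fits NR1H4 lost the call between libraries. Members outside the filter of the main fit, such as ODAPH and TMEFF2 in the wider comparison, are not among the 255. In the 3 pairs edgeR called no gene at any setting, so that an unchanged side means little there. With 1 sample left out, SH2D5 in the wider comparison was between -0.73 without TCC1506 and 4.68 without B7, and -0.37 with replicate 1 alone; in the TCC comparison it was between -2.15 without TCC1506 and 4.11 without B7, -1.45 with replicate 1 alone and -0.17 without replicate 3. NR1H4 in the wider comparison was between -2.06 without P2 and 0.12 without B8, and 1.33 without the tumor class. GNPNAT1 between libraries was 0.02 without replicate 3, 0.05 without Metadcarc1511.2 and between -0.24 without Adcarc1511.1 and 0.12 without Metadcarc1511.3. Without the replicate block (the pairing by dog), SH2D5 was -0.073 in the 3 pairs, and the count of calls stayed at 0. Divided by epithelial markers, the log2 ratio of Adcarc0846 to P2 was -4.03 for NR1H4 and -4.17 for GNPNAT1, and besides these 2 reversals 13 of 21 pair ratios moved by more than the spread between libraries.

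The counts of called genes depended more on the settings. In the 3 pairs, 0 genes became 906 with DESeq2 and 1288 with DESeq2 without a filter. In the wider comparison, 513 became 1399 with DESeq2, 2772 with DESeq2 without a filter, 1202 without a filter, 1167 with 10 counts in 2 samples and 1409 at an adjusted p of 0.05; leaving out 1 sample gave 111 (without P2) to 1161 (without B7). In the TCC comparison, 32 became 699 with DESeq2, 1395 with DESeq2 without a filter, 77 with library size only, 0 with 10 counts in 2 samples and 307 at 0.05; it was 1 and 2 with replicate 1 or 2 alone, 7 with Ln6.2, 3 to 19 without 1 replicate of each line, and 0 to 222 with 1 sample left out (0 without any 1 of the 3 lines or of B8, B9 and B10, 7 without P6.1, 222 without B7). Between libraries, 291 became 679 without a filter, 2761 at 0.05, 10 without the cell line block, 0 without replicate 2, 131 without replicate 3, and with 1 line left out 122 (without Metadcarc1511.2) to 430 (without TCC1506), with 133 without Adcarc1508 and 163 without Metadcarc1511.3. The causes were not tested. The DESeq2 fits without a filter were added after the data were seen. Depth limits ODAPH in tissues, TMEFF2 in TCC1506 and B7, and SH2D5 in P2.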

Other observations

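The genes with the most similar pattern to NR1H4 differed among the lines of patient 4. CNNM4, a magnesium transport mediator, had 76.4, 93.6 and 113 CPM in Adcarc1511.1, Metadcarc1511.2 and Metadcarc1511.3 and 98.4 CPM in B8, the tissue that was also highest for NR1H4. PHOSPHO1, a phosphatase of bone mineralization, had 2.20, 4.38 and 21.7 CPM in the same 3 lines and at most 1.18 CPM in the other lines. COL10A1, a collagen of hypertrophic cartilage, had 13.2, 57.3 and 5.76 CPM and at most 1.05 CPM in the other lines.

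The genes most similar to SH2D5 were, like SH2D5 itself, higher in B7 than in any other of the 17 summed samples. TATDN1 had 83.8 CPM, DCAF13 261 CPM and NUDCD1 272 CPM in B7, compared with at most 23.9, 92.2 and 97.5 CPM in the other tissues. These genes were chosen by their likeness to the members, and no test was made.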
